A study of Mus musculus with 4 samples.

Results

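Lymphoid cells that carried transcripts of both Klrd1 and Nkg7 were described in the embryonic mouse thymus. Klrd1 encodes CD94, the partner chain of the NKG2 receptors, and Nkg7 encodes a membrane protein of cytotoxic granules. The cells were chosen on their own unique molecular identifier (UMI) counts, where 1 UMI stands for 1 captured transcript molecule. Each had at least 200 detected genes, at most 10% mitochondrial UMIs and at least 1 UMI of Ptprc (CD45, the pan-leukocyte phosphatase), of Klrd1 and of Nkg7. No UMI of Rag1 (the recombinase of rearranging lymphocytes), Csf1r (the macrophage growth factor receptor) or Pdgfra (a mesenchymal receptor) was allowed, and at most 1 UMI of Epcam (an epithelial adhesion protein). The rule kept 166 cells of 29510 that passed the first pair of conditions, from 31105 deposited barcodes, and they are called Klrd1+Nkg7+ cells here.

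The cells came from thymic lobes of E13-13.5 embryos of Tbx1+/neo2 intercrosses, digested with trypsin and profiled by droplet single-cell RNA sequencing. Tbx1 is a transcription factor of the pharyngeal apparatus lost in 22q11.2 deletion syndrome, and neo2 is a neomycin cassette in the fifth intron that lowers its normal transcript. The 4 libraries were Tbx1+/+-carrier, Tbx1neo2/neo2-carrier, Tbx1neo2/neo2-minoxidil and Tbx1neo2/neo2-PGE2, and values are given in that order throughout. Pregnant dams had received intraperitoneal injections on E8, E9 and E10 of carrier (5% ethanol in PBS), of minoxidil (200 µl at 0.55 mg/ml), a vasodilator that opens potassium channels, or of PGE2 (90 µl at 3.6 ng/µl), a prostaglandin. Lobes were pooled for the hypoplastic tissues, and every condition was a single library, so no difference between conditions was tested, and intervals between libraries cover counting error only.

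Natural killer (NK) cells and innate lymphoid cells (ILCs) are lymphocytes that act without a rearranged antigen receptor. NK cells sense target cells through activating and inhibitory lectin-like receptors encoded in 1 gene cluster, signal through the adaptors DAP10 and DAP12, and kill with perforin and granzymes. ILCs depend on the transcriptional regulator Id2, and Tbx21 (T-bet) and Gata3 are among the factors that set their branches. The fetal thymus also makes early waves of γδ T cells that share several of these receptors, granzymes and chemokines.

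The Klrd1+Nkg7+ cells numbered 85, 26, 16 and 39 in the 4 libraries. Their median depth was 26796, 20767, 33883 and 33354 UMIs per cell. No cell barcode was shared between libraries among them, although 4 to 35 deposited barcodes were shared by each pair of libraries. None was called a doublet by Scrublet, which did not work in the Tbx1neo2/neo2-carrier library, where it called 1 cell in all, and none scored above 0.25 there or elsewhere. Embryo sex differed between the drug libraries. Xist, the RNA of the inactive X chromosome, was at 201, 490, 849 and 0 CPM (the UMIs of the gene scaled to a common total, as counts per 1000000 UMIs of the summed cells), and the Y-linked Ddx3y was at 37.7, 17.7, 0 and 45.9 CPM. Condition and embryo sex cannot be told apart for the minoxidil and PGE2 libraries. Globin took over 1% of UMIs in 2, 1, 0 and 1 of the cells, and reached 24.9% in the Tbx1neo2/neo2-carrier cell and 25.5% in the PGE2 cell.

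The genes of the rule are given as a description. Klrd1 had a median of 5 UMIs per cell in the Tbx1+/+-carrier library and of 27, 43.5 and 43 in the others. Nkg7 had medians of 12, 14.5, 21.5 and 22 UMIs. A single Klrd1 UMI placed 30, 1, 1 and 4 cells inside the rule. Among cells just outside it, 778, 235, 143 and 181 failed on Klrd1 alone, 49, 7, 3 and 7 on Nkg7 alone, 7, 1, 7 and 3 on Rag1 alone, and 28, 2, 2 and 6 on Epcam alone.

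RNA free in the suspension could set a single UMI, so epithelial cells (at least 2 Epcam UMIs, no Ptprc) were counted as cells that should lack both genes. Klrd1 was present in 1.17%, 0.0909%, 0.418% and 0.327% of them, and Nkg7 in 8.44%, 1.0%, 3.66% and 2.45%, at median depths of 24628, 26888, 53202 and 44819 UMIs. Both genes met in 23 of 3934 epithelial cells of the Tbx1+/+-carrier library (0.585%, 95% exact binomial interval 0.371 to 0.876). They met in 0 of 1100, 956 and 1225 in the others, which allows shares of up to 0.273%, 0.314% and 0.245% by the limit of 3 counts. The exact binomial upper limits were 0.335%, 0.385% and 0.301%, so that the interval with minoxidil overlapped that of the Tbx1+/+-carrier library. Shares were higher in Csf1r-positive cells, which the rule left out. Klrd1 was present in 7.69%, 2.04%, 6.78% and 8.97% of them. Both genes met in 6 of 221 (2.72%), 2 of 147 (1.36%), 0 of 59 and 3 of 78 (3.85%). How far free RNA set these shares was not tested. Nkg7 alone did not single out the Klrd1+Nkg7+ cells, since 96.5%, 98.5%, 98.9% and 98.0% of Rag1-positive cells without both genes also had it. Klrd1 was found in 2 of 519, 0 of 206, 0 of 182 and 0 of 245 of these. Those low counts follow from the selection, since 7, 1, 7 and 3 Rag1-positive cells with both genes had been left out. In the Tbx1+/+-carrier library the 54 cells with at least 2 UMIs of both genes and the 31 with 1 UMI of either differed widely in level. Il2rb, the β chain of the IL-2 and IL-15 receptors, stood at 65.3 CPM in the first and 4.04 CPM in the second, Xcl1 at 154 and 1.01 CPM, Id2 at 950 and 235 CPM, and Cd3g at 555 and 112 CPM. Pth, a parathyroid hormone transcript, was at 12.6 and 74.8 CPM, and the part of free RNA in these levels was not tested.

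Klrd1+Nkg7+ cells made up 2.79% of the Ptprc-positive cells in the Tbx1+/+-carrier library (85 of 3049, 95% exact binomial interval 2.23 to 3.44). The share was 2.46% in the Tbx1neo2/neo2-carrier library (26 of 1055, 1.62 to 3.59), 2.19% with minoxidil (16 of 732, 1.25 to 3.53) and 3.21% with PGE2 (39 of 1216, 2.29 to 4.36). All 4 intervals overlapped. With at least 2 UMIs of both genes the shares were 1.77%, 2.37%, 2.05% and 2.88%, so that the Tbx1+/+-carrier library passed from the second place to the lowest. Once each cell was thinned to 5000 UMIs, with 1037, 1350, 249 and 428 shallower cells left out, they were 2.88%, 3.81%, 3.39% and 3.83%, and the intervals again overlapped. Of all kept cells of the library they were 0.741%, 0.243%, 0.5% and 0.939%. On this denominator Tbx1neo2/neo2-carrier was 3.04-fold below Tbx1+/+-carrier (intervals 0.159 to 0.356 and 0.592 to 0.915) and PGE2 was 3.86-fold above Tbx1neo2/neo2-carrier, in both cases without overlap of the intervals. Ptprc-positive cells were themselves 3049 of 11474, 1055 of 10683, 732 of 3201 and 1216 of 4152 kept cells. How far that make-up of the libraries set these folds was not tested. Of the Rag1-negative cells that met every other condition they were 8.04%, 7.78%, 9.25% and 15.4%, and the PGE2 interval (11.2 to 20.5) lay above that of the Tbx1+/+-carrier library (6.47 to 9.85) and overlapped that of the Tbx1neo2/neo2-carrier library (5.15 to 11.2).

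**Figure D1:**
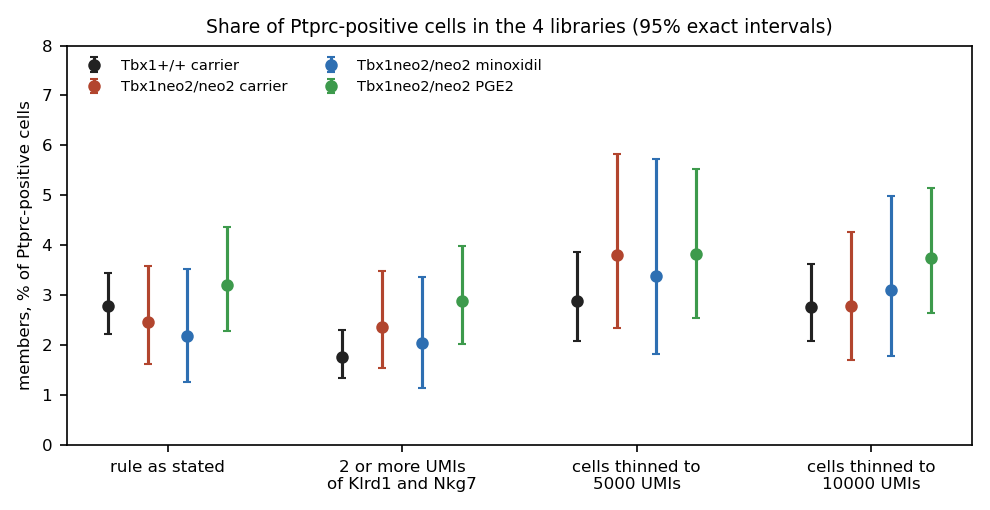
Percent of Ptprc-positive cells that were Klrd1+Nkg7+ (vertical axis) in the 4 libraries under 4 settings: the rule as stated, at least 2 UMIs of both genes, and cells thinned to 5000 or 10000 UMIs. Points are single libraries and bars are 95% exact binomial intervals for counting error, which overlap between libraries in each setting (2.19% to 3.21% under the rule as stated).

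The transcriptome of the Klrd1+Nkg7+ cells was set against that of other lymphoid cells of the same libraries. One group was the 972, 308, 157 and 214 other Rag1-negative cells that met every condition but Klrd1 or Nkg7, and the other the 519, 206, 182 and 245 Rag1-positive cells without both genes, which are differentiating T cells. UMIs were summed per library and group and fitted with edgeR's quasi-likelihood test with the library as a term, so that 4 libraries stood as replicates. Because the groups were chosen on Klrd1, Nkg7 and Rag1 in these very cells, the fits show which transcripts went together with those genes and are not independent evidence of a cell type. Against other Rag1-negative cells, 1211 of 10650 genes tested (11.4%) were higher and 834 (7.83%) lower at an adjusted p of 0.05, and against Rag1-positive cells 1445 of 10214 (14.1%) were higher and 980 (9.59%) lower. Leaving out 1 library moved some of these counts by more than 1.5 times. The first lower count was 423 without the Tbx1neo2/neo2-carrier library and 461 without the PGE2 library, and the second pair of counts was 946 and 487 without the PGE2 library. The median log2 difference over all genes was -0.02 in both fits. The low-count filter let a gene pass through 1 cell group alone. In the first fit 184 genes passed through the Klrd1+Nkg7+ cells alone, of which 135 were higher and 0 lower, and in the second 310, of which 263 were higher and 0 lower. Such genes could hardly be called lower. A further 1592 genes in the first fit and 1316 in the second passed through the comparison cells alone. Those could less easily be called higher, which bears on the lower counts. The counts and medians of lists given below are therefore a description and not support for a direction. The same holds for the adjusted p of single genes that passed in either way. In the first fit those that passed through the Klrd1+Nkg7+ cells alone were, among genes described below, the receptors Klrc1, Klrc2, Klrk1, Klra5, Klre1, Klrb1b, Cd226 and Cd200r4, the factors Tbx21 and Eomes, the cytokines Xcl1, Ifng and Il13, and Il2rb, Il18r1, Cxcr3, Cxcr5 and Cxcr6. In the second Ccl5 was among them. The other Rag1-negative cells were a mixture that also held granulocytes, as the fit of S100a8 shows further on. They were no shallower, with median depths of 32558, 27666, 58662 and 47032 UMIs.

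Of the markers that named these cells, Ccl5 set them apart and Gzma did not. Ccl5, a chemokine of cytotoxic and memory lymphocytes, stood at 707, 1663, 1538 and 671 CPM in Klrd1+Nkg7+ cells, at 79.0, 44.0, 32.7 and 58.0 CPM in other Rag1-negative cells, and at 3.11, 2.69, 1.90 and 1.92 CPM in Rag1-positive cells. The 3 groups did not overlap. Its log2 difference was 4.48 (SE 0.37, adjusted p = 4.25e-06) from the first comparison group and 8.84 (SE 0.28, adjusted p = 1.01e-08) from the second. In the second fit Ccl5 passed the filter through the Klrd1+Nkg7+ cells alone, so that adjusted p is not support for a direction. Gzma, which encodes granzyme A, was at 1773, 2679, 1064 and 1386 CPM, and its difference from other Rag1-negative cells did not pass the test (log2 0.32, SE 0.18, adjusted p = 0.237). It was lower than in Rag1-positive cells (log2 -1.01, SE 0.10, adjusted p = 4.31e-05). The label innate-like could not be checked against T cell receptor constant and variable genes (Trac, Trbc1, Trbc2, Trdc and others), which were not analysed here.

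Receptors of NK cells and their signalling adaptors held many genes at or near 0 in the comparison cells. Of 33 genes listed, 20 could be tested against other Rag1-negative cells, and 16 of them were higher and 0 lower, beside 11.4% and 7.83% of all genes. Their median log2 difference was 2.26 against -0.02 over all genes. Against Rag1-positive cells 17 of 20 were higher and 0 lower (median 2.94), beside 14.1% and 9.59% of all genes. Of the genes tested, 10 and 12 passed the filter through the Klrd1+Nkg7+ cells alone, and all of these were higher. Among the 10 and 7 that the comparison cells carried above the filter, 6 and 5 were higher and 0 lower. Klrc1 (NKG2A, the inhibitory partner of CD94) was at 23.6, 62.8, 72.3 and 93.1 CPM in the Klrd1+Nkg7+ cells and at 0.227, 0, 0 and 0.416 CPM in other Rag1-negative cells, a log2 difference of 8.03 (SE 0.39, adjusted p = 5.53e-08). No Klrc1 UMI was found in Rag1-positive cells, which makes its level at least 954-fold higher with a floor of 3 counts over that group. Klrk1 (NKG2D, an activating receptor for stress ligands) was at 41.0, 88.6, 104 and 140 CPM against 0.617, 1.20, 0.105 and 1.35 CPM, a log2 difference of 6.77 (SE 0.30, adjusted p = 3.88e-08). Klrc1 and Klrk1 were among those that passed through the Klrd1+Nkg7+ cells alone, so their adjusted p is not support for a direction. Both receptors were lowest in the Tbx1+/+-carrier library, and the lowest value in Klrd1+Nkg7+ cells still lay above the highest in the comparison cells.

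Further lectin-like receptors that passed the filter through the Klrd1+Nkg7+ cells alone are given by size. Klrc2, which encodes the activating NKG2C, differed from other Rag1-negative cells by 8.89 on the log2 scale (adjusted p = 4.5e-08), Klra5 of the Ly49 family by 8.17 (adjusted p = 5.67e-07), Klre1 by 6.05 (adjusted p = 7.39e-07) and the inhibitory Klrb1b by 5.53 (adjusted p = 4.5e-08). Cd226 (DNAM-1, an activating adhesion receptor) was at 23.2, 54.8, 70.6 and 77.6 CPM and differed by 5.57 (adjusted p = 1.44e-07). The adaptors Tyrobp (DAP12), Fcer1g and Hcst (DAP10) rose by 1.84, 1.68 and 1.67 on the log2 scale. Tyrobp stood at 1015, 1551, 1671 and 1130 CPM, so that transcripts of the signalling chain were abundant in all 4 libraries. Ncr1 (NKp46), a defining NK cell receptor, was at 14.1, 43.5, 0 and 62.1 CPM, against 0.0325, 0, 0 and 0 CPM in other Rag1-negative cells. The 0 with minoxidil allows up to 5.04 CPM. Klrb1c (NK1.1) was at 7.46, 16.1, 1.68 and 24.0 CPM. Neither gene was tested, as neither passed the low-count filter. Cd200r4, a paired receptor of the CD200 family outside this list, was at 64.7, 83.8, 207 and 71.3 CPM and rose by 6.35 (adjusted p = 3.04e-07). It also passed through the Klrd1+Nkg7+ cells alone, and the adjusted p of such genes is not support for a direction.

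Because Klrc1, Klrk1, Xcl1 and Ifng rose together, part of each promoter is shown, from 250 to 51 bases before the RefSeq start (build GRCm38.p6) and on the gene's strand. Capitals mark the core letters of the RUNX motif, TGTGGT, or ACCACA where it lies on the other strand. The genes lie at chr6:129666015-129678973 (Klrc1, minus strand), chr6:129610323-129623864 (Klrk1, minus), chr1:164931644-164935527 (Xcl1, minus) and chr10:118441046-118445892 (Ifng, plus), with Klrd1 at chr6:129591782-129598775 (plus) beside the first pair.
Klrc1, chr6:129679024-129679223: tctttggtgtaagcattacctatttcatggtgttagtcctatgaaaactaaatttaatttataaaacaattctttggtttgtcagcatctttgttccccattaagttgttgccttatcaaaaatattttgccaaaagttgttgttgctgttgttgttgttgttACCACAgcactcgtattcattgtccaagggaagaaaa
Klrk1, chr6:129623915-129624114: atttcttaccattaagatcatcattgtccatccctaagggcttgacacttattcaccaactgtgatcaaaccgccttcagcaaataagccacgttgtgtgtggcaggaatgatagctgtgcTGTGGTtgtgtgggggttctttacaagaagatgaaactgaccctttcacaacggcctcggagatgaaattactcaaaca
Xcl1, chr1:164935573-164935772: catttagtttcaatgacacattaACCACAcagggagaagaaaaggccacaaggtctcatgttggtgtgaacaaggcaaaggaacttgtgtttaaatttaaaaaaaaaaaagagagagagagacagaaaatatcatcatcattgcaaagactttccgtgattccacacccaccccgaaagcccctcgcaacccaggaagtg
Ifng, chr10:118440796-118440995: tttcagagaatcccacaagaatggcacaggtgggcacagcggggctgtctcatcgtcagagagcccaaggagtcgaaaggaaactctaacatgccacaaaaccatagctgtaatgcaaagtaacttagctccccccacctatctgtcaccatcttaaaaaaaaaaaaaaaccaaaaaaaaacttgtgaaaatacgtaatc

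The match lay 87 bases before the start in Klrc1, 129 in Klrk1 and 227 in Xcl1. Ifng had none on either strand of the window searched, from 250 to 51 bases before the start. These 6 letters were found in 5 of 10 named genes that were higher with a promoter in the table (Cxcr3, Gimap4, Klrc1, Klrk1 and Xcl1), in 5 of 11 that were lower (Arpp21, S100a9, Stfa1, Stfa2l1 and Stfa3), and in 11.6% of all 32851 RefSeq windows. The T-box letters AGGTGTGA (or TCACACCT) were in none of either group and in 0.922% of all windows, and CTTTGA (or TCAAAG), bound by TCF and LEF factors, in Cxcr6 alone and 11.8%. The ROR letters AGGTCA (or TGACCT) were in Klrb1b alone and in 11.4% of all windows. These matches describe letters in a window.

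**Figure D2:**
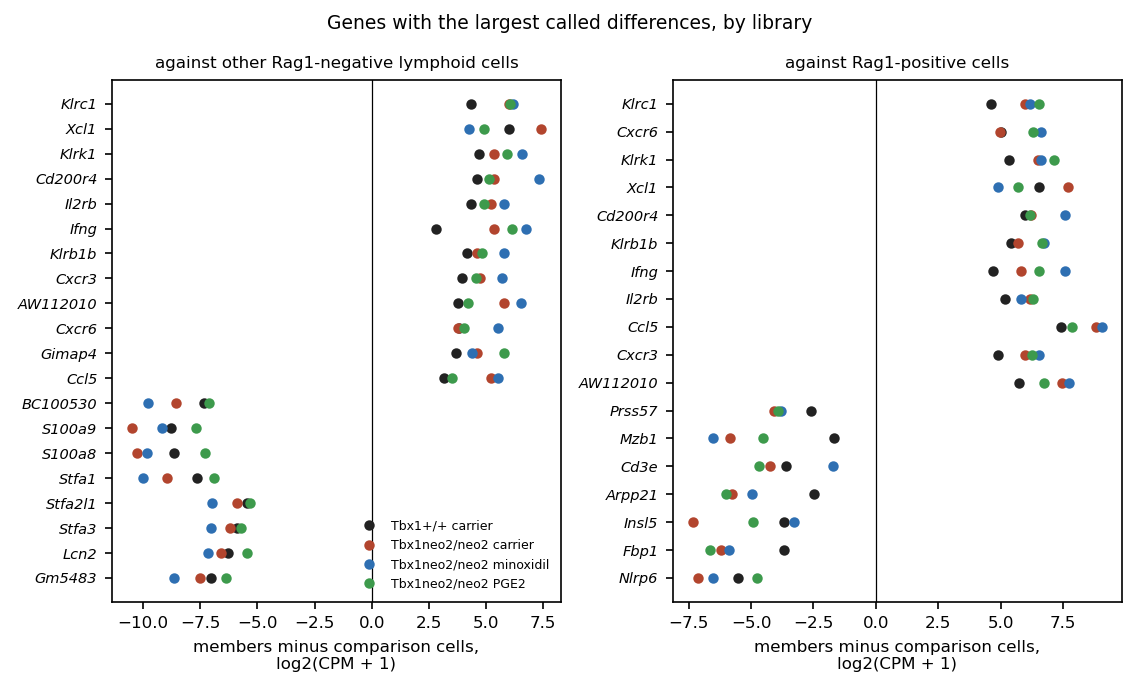
Difference in log2(CPM + 1) between Klrd1+Nkg7+ cells and other Rag1-negative cells or Rag1-positive cells (horizontal axis), with 1 point per library for genes named by rule in each comparison. The naming rule asks for 1 direction in all 4 libraries, and Klrc1 against other Rag1-negative cells was lowest in the Tbx1+/+-carrier library (4.33 against 6.0 to 6.2 in the others).

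Of 14 granule genes tested, 6 were higher and 1 lower than in other Rag1-negative cells (median log2 0.32), beside 11.4% and 7.83% of all genes, and 8 were higher and 2 lower than in Rag1-positive cells (median 0.47), beside 14.1% and 9.59%. In each fit 1 of the higher genes passed the filter through the Klrd1+Nkg7+ cells alone. Ctsw, encoding a cathepsin of cytotoxic lymphocytes, was at 126, 190, 277 and 241 CPM and rose by 4.26 (SE 0.21, adjusted p = 6.6e-08), and Tnfsf10 (TRAIL), a death ligand of immature NK cells, was at 57.6, 80.6, 99.2 and 123 CPM and rose by 1.38. Srgn, the proteoglycan core of the granule, was at 631, 569, 783 and 514 CPM, 0.34 higher (adjusted p = 0.0381). Gzmb, encoding granzyme B, fell by 1.86 (SE 0.43, adjusted p = 0.00896) against other Rag1-negative cells, and stood at 159, 43.5, 20.2 and 14.1 CPM. Prf1, which encodes perforin, was at 1.66, 1.61, 1.68 and 0.706 CPM, below the level needed for a test. Gzma and Gzmb were thus the granule genes that Rag1-positive cells carried at higher levels, and perforin transcripts were near their detection limit in all 4 libraries.

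Among 43 lymphoid transcription factors tested against other Rag1-negative cells, 23 were higher and 9 lower (median log2 0.75), beside 11.4% and 7.83% of all genes, and of 41 tested against Rag1-positive cells 25 were higher and 10 lower (median 1.08), beside 14.1% and 9.59%. Id2, which holds E proteins in check and is required for ILCs and NK cells, was at 657, 952, 1281 and 891 CPM, above both comparison groups in every library, and rose by 3.25 (SE 0.18, adjusted p = 1.77e-07) and 5.06 (SE 0.18, adjusted p = 2.04e-08). Tbx21 (T-bet) was at 19.1, 38.7, 40.3 and 19.8 CPM in Klrd1+Nkg7+ cells and stood at 0.584, 0.842, 0.523 and 0.416 CPM in other Rag1-negative cells, and its relative Eomes, the partner factor of NK cell maturation, was at 10.4, 25.8, 8.40 and 17.6 CPM against 0.0974, 0, 0 and 0.624 CPM. Both are given as levels, since 7 of the 43 factors, these included, passed the filter through the Klrd1+Nkg7+ cells alone and all 7 were called higher (10 of 10 in the second fit). Zbtb16 (PLZF), expressed in ILC precursors and innate-like T cells, was at 63.4, 66.1, 97.5 and 72.0 CPM and rose by 1.42 (SE 0.15, adjusted p = 4.24e-05). For each of these 4 regulators the lowest library of Klrd1+Nkg7+ cells lay above the highest of the other Rag1-negative cells.

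Rora, which ILC2 need, was at 104, 105, 323 and 170 CPM and rose by 2.86 against other Rag1-negative cells, and Gata3, shared by T cells and ILC2, was at 131, 158, 208 and 129 CPM and rose by 1.02. Runx3 rose by 0.75 and Runx1 fell by 1.0. Tcf7, Bcl11b and Sox4 were not called higher than in other Rag1-negative cells, and the first pair differed in sign between libraries. Tcf7 (TCF-1) was at 163, 209, 257 and 175 CPM, not separable from other Rag1-negative cells (log2 0.12, SE 0.14, adjusted p = 0.615) and lower than in Rag1-positive cells (-0.48, adjusted p = 0.0206). Bcl11b, which fixes T cell identity, was at 15.8, 40.3, 10.1 and 29.6 CPM, with a difference of -0.04 (SE 0.31, adjusted p = 0.951) from other Rag1-negative cells and of -2.15 (adjusted p = 3.74e-06) from Rag1-positive cells. Sox4 fell by 1.49 against other Rag1-negative cells.

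**Figure D3:**
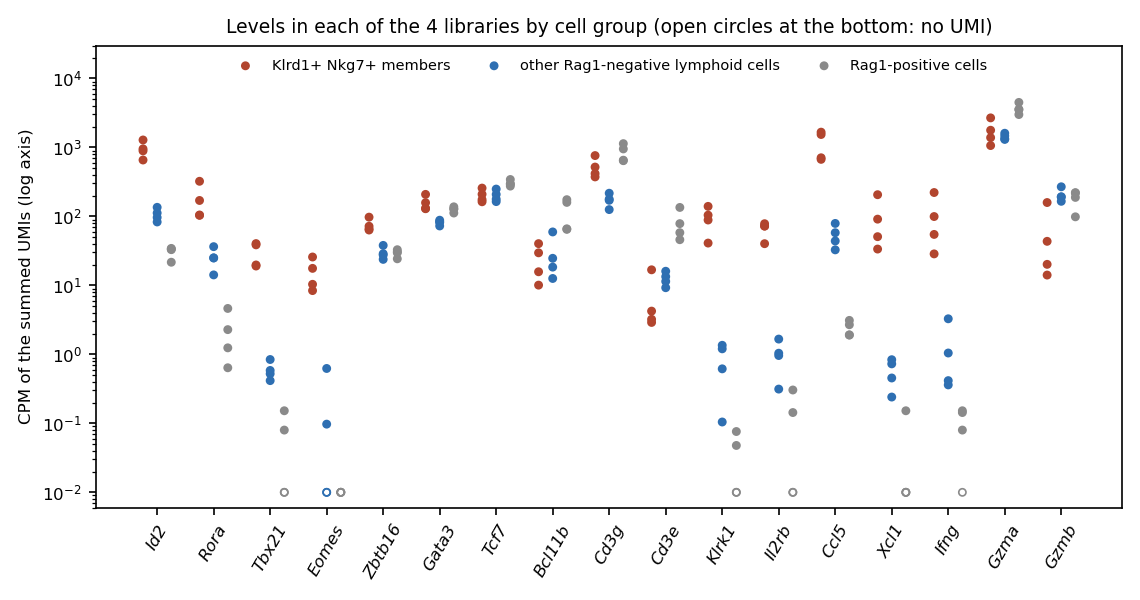
Level in CPM (logarithmic axis) of lineage factors, receptors, cytokines and granzymes in Klrd1+Nkg7+ cells (red), other Rag1-negative lymphoid cells (blue) and Rag1-positive cells (grey), with 1 point per library and open circles at the lower edge for no UMI. Ccl5 and Id2 of the Klrd1+Nkg7+ cells lie above both other groups in all 4 libraries, whereas Gzma overlaps the other Rag1-negative cells.

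At a common depth of 5000 UMIs per cell, Id2 was detected in 79.9% of 164 Klrd1+Nkg7+ cells (90.4% unthinned), in 26.8% of 1572 other Rag1-negative cells, in 13.4% of 1146 Rag1-positive cells and in 36.4% of 6869 epithelial cells, which also use the gene. Tbx21 was found in 11.6% (39.2% unthinned) and in 0.255%, 0% and 0.218% of the other 3 groups, and Eomes in 7.32% (20.5% unthinned) against 0.0636%, 0% and 0%. Ifng was present in 21.3% (31.9% unthinned) against 0.255%, 0% and 0.102%, and Xcl1 in 12.8% (21.7% unthinned) against 0.255%, 0.0873% and 0%. For Gzma the thinned share of 49.4% (72.3% unthinned) stood near the 50.5% of other Rag1-negative cells and below the 88.0% of Rag1-positive cells, with 8.69% in epithelial cells. Neither Tbx21 nor Eomes was found in most Klrd1+Nkg7+ cells at either depth.

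Of the cytokine and chemokine genes, 11 of 15 tested were higher and 1 (Tgfb1) lower than in other Rag1-negative cells (median log2 2.83), beside 11.4% and 7.83% of all genes. Against Rag1-positive cells 11 of 14 were higher (median 3.73), beside 14.1% of all genes. Of the higher genes, 4 and 7 had passed the filter through the Klrd1+Nkg7+ cells alone. Among the 9 and 6 that the comparison cells carried above the filter, 6 and 3 were higher and 1 and 0 lower. Xcl1 (lymphotactin, which attracts cross-presenting dendritic cells) was at 91.2, 206, 33.6 and 50.8 CPM against 0.454, 0.241, 0.837 and 0.728 CPM, a log2 difference of 7.39 (SE 0.37, adjusted p = 8.06e-08). In the Tbx1neo2/neo2-carrier library 64.1% of its UMIs came from 1 cell, and with minoxidil 90%. Ifng (interferon-γ) was at 28.6, 54.8, 222 and 99.5 CPM against 3.28, 0.361, 1.05 and 0.416 CPM, a difference of 5.68 (SE 0.61, adjusted p = 4.19e-05). Ltb, the membrane lymphotoxin that lymphoid tissue inducer (LTi) cells use to instruct stroma, was at 364, 685, 1136 and 519 CPM and rose by 2.83 (SE 0.21, adjusted p = 1.69e-06). Il13, a type 2 cytokine, was at 22.0, 37.1, 84.0 and 49.4 CPM and rose by 3.39 (adjusted p = 2.15e-06). Xcl1, Ifng and Il13 passed the filter through the Klrd1+Nkg7+ cells alone, so their adjusted p is not support for a direction. Il17a had UMIs in 1 cell, of the minoxidil library. These levels are of pooled cells and do not show the cytokines in the same cells.

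Of the receptors for cytokines, 9 of 23 were higher and 3 lower than in other Rag1-negative cells (median log2 0.15), beside 11.4% and 7.83% of all genes. Among the 19 that the comparison cells carried above the filter, 6 were higher and 3 lower. Il2rb was at 40.2, 72.5, 72.3 and 78.3 CPM against 1.04, 0.962, 0.314 and 1.67 CPM, a difference of 5.95 (SE 0.28, adjusted p = 5.16e-08). Il18r1, the receptor for IL-18 that primes interferon-γ release, was at 33.6, 32.2, 65.6 and 70.6 CPM and rose by 4.40 (SE 0.26, adjusted p = 2.86e-07), together with Il18rap (2.92) and Il12rb1 (2.84). For Il2rb and Il18r1, which passed the filter through the Klrd1+Nkg7+ cells alone, the adjusted p is not support for a direction. Il7r, the receptor that sustains ILCs and thymocytes, was at 51, 98.3, 52.1 and 65.6 CPM, 0.63 above other Rag1-negative cells (adjusted p = 0.00888) and not separable from Rag1-positive cells (-0.11, adjusted p = 0.629). Il2ra (CD25), a marker of early T cell stages, fell by 2.25 (adjusted p = 0.000709).

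Of 14 LTi and ILC2 genes tested, 9 were higher and 3 lower than in other Rag1-negative cells (median log2 2.11), beside 11.4% and 7.83% of all genes. Among the 9 that the comparison cells carried above the filter, 6 were higher and 3 lower. Cxcr5, a chemokine receptor of LTi cells, rose by 2.14 (adjusted p = 0.00232). It passed the filter through the Klrd1+Nkg7+ cells alone, so that adjusted p is not support for a direction. Icos, a costimulator of ILC2, was at 44.4, 43.5, 89.1 and 79.7 CPM and rose by 2.09. The 3 that fell were Il17rb and Il1rl1, the receptors for IL-25 and IL-33 on ILC2, and Nrp1.

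Of 18 genes of the T cell receptor complex tested, 8 were higher and 3 lower than in other Rag1-negative cells (median log2 0.96), beside 11.4% and 7.83% of all genes, and 6 of 19 were higher and 6 lower than in Rag1-positive cells (median -0.17), beside 14.1% and 9.59%. Among the 13 and 15 that the comparison cells carried above the filter, 4 and 2 were higher and 3 and 6 lower. Cd3g was at 373, 519, 761 and 417 CPM, 1.68 above other Rag1-negative cells (SE 0.15, adjusted p = 8.78e-06), and its difference from Rag1-positive cells did not pass (-0.59, adjusted p = 0.0601). Cd3e, the CD3 chain every mature T cell needs, was at 2.90, 3.22, 16.8 and 4.23 CPM against 45.9, 78.5, 58.1 and 135 CPM in Rag1-positive cells, a difference of -3.73 (SE 0.36, adjusted p = 3.05e-05). The 4 libraries of each group did not overlap. Ptcra, which encodes the pre-T cell receptor α chain, had a single UMI in all 166 cells, a difference of -7.62 (SE 0.47, adjusted p = 1.15e-06). With that single UMI it could pass the low-count filter only through the comparison cells. Its adjusted p is therefore not support for a direction. Thinned to 5000 UMIs, Cd3g was found in 67.7% of the Klrd1+Nkg7+ cells (81.3% unthinned) and in 68.1% of Rag1-positive cells, against 3.12% in epithelial cells, and Cd3e in 1.22% (9.04% unthinned) and 26.4%, against 0.349%. At least 2 UMIs over Cd3d, Cd3e and Cd3g were present in 57, 23, 14 and 32 cells and none in 20, 2, 1 and 2, too few without CD3 for a comparison across libraries.

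In the early T cell and Notch list 8 of 16 tested were lower than in other Rag1-negative cells and 11 of 16 lower than in Rag1-positive cells, beside 7.83% and 9.59% of all genes, with 2 and 3 higher (medians -0.99 and -1.77). Of the genes tested, 4 and 3 passed the filter through the comparison cells alone and could less easily be called higher. The second contrast was chosen on Rag1, a gene of the same stage. Notch1, the receptor that starts T cell development, was at 63.4, 16.1, 31.9 and 33.9 CPM and fell by 1.29 (adjusted p = 0.000798) against other Rag1-negative cells, and its target Dtx1 fell by 1.80. Myb was at 148, 30.6, 16.8 and 73.4 CPM and fell by 2.02 (adjusted p = 0.000661). Cd7, a surface protein of T cells and NK cells, went the other way, at 211, 308, 472 and 247 CPM and 2.17 higher (adjusted p = 2.36e-06). Against Rag1-positive cells the named genes that fell included Nlrp6 by 6.08, Fbp1 by 5.48, Insl5 by 4.30, Arpp21 by 3.92, Cd3e by 3.73, Mzb1 by 3.33 and Prss57 by 3.32 on the log2 scale. Nlrp6, an inflammasome sensor, stood at 0.83, 0, 0 and 3.53 CPM in Klrd1+Nkg7+ cells against 83.6, 141, 90.3 and 122 CPM.

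Of 20 homing genes tested, 14 were higher than in other Rag1-negative cells and 2 lower (median log2 1.02), beside 11.4% and 7.83% of all genes. Among the 17 that the comparison cells carried above the filter, 12 were higher and 2 lower. Cxcr6, a receptor of tissue-resident lymphocytes, was at 32.8, 30.6, 97.5 and 76.9 CPM against 1.40, 1.32, 1.15 and 3.75 CPM (log2 4.97, SE 0.28, adjusted p = 2.23e-07). Cxcr3, which follows interferon-induced chemokines, was at 40.6, 70.9, 99.2 and 87.5 CPM and rose by 5.32 (SE 0.27, adjusted p = 8.06e-08). Cxcr6 and Cxcr3 passed the filter through the Klrd1+Nkg7+ cells alone, so their adjusted p is not support for a direction. Ccr2 was at 139, 211, 220 and 118 CPM and rose by 2.78 (adjusted p = 2.34e-07). In the interferon and MHC class I list 12 of 22 were higher and 1 (Bst2) lower (median 0.71), beside the same 11.4% and 7.83%. Among the 19 that the comparison cells carried above the filter, 10 were higher and 1 lower. H2-K1 was at 373, 543, 595 and 623 CPM and rose by 2.35 (adjusted p = 2.69e-07), and B2m rose by 1.39. AW112010, an interferon-inducible transcript, was at 166, 491, 445 and 356 CPM and rose by 5.18 (adjusted p = 2.15e-06), and Gimap4, a lymphocyte GTPase gene, rose by 4.77 (adjusted p = 2.34e-07). Each of these genes was lowest in the Tbx1+/+-carrier library except Ccr2 and Cxcr6, and that library held most of the cells with a single Klrd1 UMI.

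Mki67, the proliferation antigen Ki-67, was detected in 48.2% of Klrd1+Nkg7+ cells thinned to 5000 UMIs (69.9% unthinned), in 40.1% of other Rag1-negative, 47.6% of Rag1-positive and 48.4% of epithelial cells. Its level was 215, 226, 187 and 421 CPM, 0.57 above other Rag1-negative cells (SE 0.12, adjusted p = 0.00611) and not separable from Rag1-positive cells (0.26, adjusted p = 0.224). Of 20 proliferation genes, 8 were higher and 1 lower than in other Rag1-negative cells (median 0.30, beside 11.4% and 7.83% of all genes), and 2 higher and 1 lower than in Rag1-positive cells (median 0.05, beside 14.1% and 9.59% of all genes). Immediate early and stress genes were higher in 9 of 15 and lower in 2 against other Rag1-negative cells (median 0.70), beside the 11.4% and 7.83%, and higher in 11 of 14 and lower in 1 against Rag1-positive cells (median 0.89), beside the 14.1% and 9.59%. A list of prostaglandin receptors, potassium channel subunits and genes of cyclic AMP signalling had 7 genes tested against other Rag1-negative cells. Ptger4 and Nr4a2, a nuclear receptor gene that cyclic AMP induces, were higher, and Pde4d, a phosphodiesterase gene, was lower, in a list too short to be read against the 11.4% and 7.83% of all genes. Ptger4 (EP4, a PGE2 receptor that raises cyclic AMP) was at 21.6, 19.3, 26.9 and 28.2 CPM, 0.77 above other Rag1-negative cells (SE 0.17, adjusted p = 0.00841) and 0.88 above Rag1-positive cells (adjusted p = 0.00874).

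The strongest falls against other Rag1-negative cells were neutrophil genes. S100a8 and S100a9, the calprotectin subunits, were at 729, 1230, 2440 and 263 CPM and at 992, 1418, 2516 and 353 CPM in the comparison cells, against 0.83, 0, 1.68 and 0.706 CPM and 1.24, 0, 3.36 and 0.706 CPM in the Klrd1+Nkg7+ cells. Gm5483, Lcn2, Stfa3 and Stfa2l1 had no UMI in the 166 cells, which makes them at least 291-, 143-, 120- and 96.8-fold lower with a floor of 3 counts over the cells. Once comparison cells with over 0.5% granulocyte UMIs were left out, all 8 named genes of this kind (with Stfa1 and BC100530) fell below the level needed for a test.

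Markers of other cell types were read as sums in CPM over each list. Macrophage and dendritic markers (18 genes) summed to 226, 193, 496 and 108 CPM, with 3, 6, 9 and 7 genes at 0, against 4593, 8976, 5678 and 5217 CPM in Csf1r-positive cells. The most abundant was Cd74 (70.9, 69.3 and 213 CPM in the first 3 libraries, 95.3% of the last from 1 cell) or Fcgr3 (43.0 CPM with PGE2), a receptor that NK cells also carry. The defining C1qa was at 0.415, 0, 0 and 0 CPM. Granulocyte and mast cell markers (16 genes) summed to 273, 75.7, 329 and 66.3 CPM, with 7, 14, 13 and 10 genes at 0, led by Cpa3 (206, 72.5, 324 and 37.4 CPM), a mast cell protease gene, and Ms4a2 of mast cells had no UMI. B cell markers (9 genes) summed to 37.7, 20.9, 21.9 and 17.6 CPM, with 5, 8, 7 and 7 genes at 0, led by Cd79b. Epithelial markers summed to 161, 98.3, 116 and 63.5 CPM against 9147, 7361, 9082 and 9165 CPM in epithelial cells, mesenchymal markers to 86.2, 70.9, 15.1 and 32.5 CPM, and endothelial markers to 133, 103, 119 and 92.4 CPM, mostly Pecam1 (79.2, 72.5, 94.1 and 61.4 CPM). Erythroid markers summed to 425, 12740, 123 and 10410 CPM, led by Hbb-bs at 7479 CPM in the Tbx1neo2/neo2-carrier library and Hbb-y at 5868 CPM with PGE2, of which 1 cell each gave 99.3% and 99.6%. Parathyroid markers summed to 55.1, 0, 1.68 and 0 CPM, with Pth at 38.1 CPM in the Tbx1+/+-carrier library. The part of these transcripts in the differences between libraries was not tested.

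The 166 cells were not uniform in their lineage factors. Tbx21 or Eomes was found in 84 cells (33, 16, 12 and 23) and neither in 82 (52, 10, 4 and 16), at median depths of 28501 and 28579 UMIs. This division rests on single UMIs, so levels are a description with 95% exact Poisson intervals for counting error. Ncr1 was at 53.2 CPM (44.5 to 63.0) in cells with Tbx21 or Eomes and at 5.94 CPM (3.33 to 9.80) in those with neither, and Klrb1c at 22.2 and 2.77 CPM. Klrk1 was at 91.1, 127, 128 and 209 CPM with Tbx21 or Eomes and at 14.6, 31.9, 8.57 and 39.8 CPM with neither, without overlap between the libraries of the 2 sets. Il2rb was at 82.7, 94.7, 89.9 and 116 CPM against 17.7, 39.8, 0 and 24.2 CPM, and Ifng at 131 against 17.8 CPM over all libraries. Xcl1 was at 158 CPM (143 to 175) against 16.2 CPM (11.7 to 22.0).

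Cells with neither factor had lower Id2 (513 against 1152 CPM) and Ltb (295 against 782 CPM), in each of the 4 libraries. Ccl5 was at 392, 2733, 882 and 365 CPM with neither and at 1304, 936, 1698 and 882 CPM with Tbx21 or Eomes, so that the Tbx1neo2/neo2-carrier library had the opposite order. Tcf7 and Kit were higher with neither in each library. Their Tcf7 was at 230 CPM (212 to 250) against 136 CPM (122 to 151), and Kit, the stem cell factor receptor of precursors, at 81.6 CPM (70.8 to 93.5) against 34.5 CPM (27.6 to 42.6). Of these 82 cells, 51 had at least 2 UMIs of both Klrd1 and Nkg7, compared with 78 of the 84 with Tbx21 or Eomes. Gzma did not follow the division. It was at 1304, 3046, 372 and 2091 CPM with Tbx21 or Eomes and at 2021, 2140, 3898 and 363 CPM with neither. Gzmb was at 24.6 CPM against 151 CPM with neither, a level set by the 227 CPM of the Tbx1+/+-carrier library, since the others stood at 35.9, 25.7 and 17.3 CPM. Cd3g was present in both sets, at 573 and 326 CPM.

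**Figure D4:**
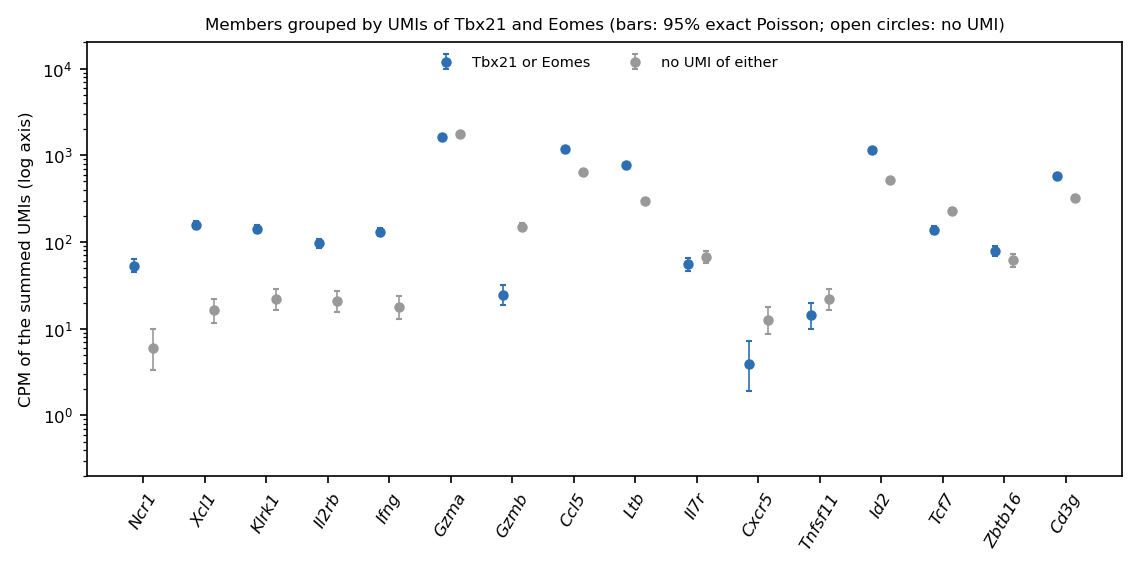
Level in CPM (logarithmic axis) of 16 genes in Klrd1+Nkg7+ cells with and without UMIs of Tbx21 or Eomes, pooled over 4 libraries, with 95% exact Poisson intervals. Ncr1, Xcl1 and Klrk1 are higher with Tbx21 or Eomes (53.2 against 5.94 CPM for Ncr1), and Tcf7 is higher with neither (230 against 136 CPM). The Gzmb level with neither is set by the Tbx1+/+-carrier library.

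Whether the genotype or the drugs went with other transcripts in these cells was read from single libraries. Genes with at least 50 CPM in either library were called when they differed by 2-fold with intervals that did not overlap. Between the Tbx1neo2/neo2-carrier and Tbx1+/+-carrier libraries 27 of 2834 genes (0.953%) were higher and 62 (2.19%) lower, or 41 and 38 after TMM scaling. With at least 2 UMIs of Klrd1 and of Nkg7, 16 were higher and 50 lower, of which 13 and 29 were among the 27 and 62. Against the Tbx1neo2/neo2-carrier library 140 of 2847 (4.92%) were higher and 77 (2.70%) lower with minoxidil, and 81 of 2804 (2.89%) were higher and 28 (0.999%) lower with PGE2. Both drug comparisons share that library, so a gene high or low in it appears in each.

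In the Tbx1neo2/neo2-carrier library the named genes above Tbx1+/+-carrier were Ccl4, Tmsb15a, H2-Q7, Prss2 and Ly6a. Ccl4 (MIP-1β) was at 43.1, 934, 20.2 and 19.05 CPM, 21.7-fold higher than in Tbx1+/+-carrier, and 83.5% of its UMIs came from 1 cell. Ccl3 of the same family was at 46.8, 213, 8.40 and 65.6 CPM. Tmsb15a, a β-thymosin gene, was at 10.8, 105, 21.9 and 77.6 CPM (9.72-fold higher), the class I gene H2-Q7 at 7.05, 51.6, 11.8 and 48.7 CPM (7.32-fold) and Ly6a (Sca-1) at 19.1, 103, 215 and 74.8 CPM (5.41-fold). Prss2, a trypsinogen gene, was at 12, 72.5, 0 and 35.3 CPM (6.03-fold), with UMIs in 3 cells of the Tbx1neo2/neo2-carrier library and 60% of them in 1. Lower were Adgrg1, an adhesion receptor (111, 6.44, 1.68 and 33.2 CPM, 17.2-fold lower), Mzb1, a chaperone (79.6, 4.83, 1.68 and 14.1 CPM, 16.5-fold), Akr1c13 (180, 22.6, 84.0 and 69.9 CPM, 7.98-fold), Gm26532 (56.0, 8.06, 53.8 and 81.2 CPM, 6.95-fold, with 53.0, 12, 48.8 and 88.1 CPM in other Rag1-negative cells and 54.5, 6.83, 73.3 and 74.7 CPM in mesenchymal cells) and the scavenger receptor gene Cd163l1 (70.1, 11.3, 170 and 116 CPM, 6.21-fold). Adgrg1 and Mzb1 no longer differed by this rule when at least 2 UMIs of Klrd1 and Nkg7 were required. H2-Q7 lay near the 50 CPM minimum and was no longer called without globin-rich cells, where its log2 ratio was 2.80 compared with 2.87.

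With minoxidil the named genes above Tbx1neo2/neo2-carrier were Lta, Cd163l1, Flrt3, Nme2 and Tnfaip3. Lta (lymphotoxin-α) was at 49.7, 20.9, 366 and 33.2 CPM, 17.5-fold higher, with 56.9% of its UMIs in 1 of the 16 cells. Cd163l1 was 15.1-fold higher and the adhesion gene Flrt3 9.65-fold (18.7, 6.44, 62.2 and 7.06 CPM). Nme2, a nucleoside diphosphate kinase gene, was at 12, 6.44, 62.2 and 17.6 CPM, but it was also at 10.7 and 99.1 CPM in other Rag1-negative cells and at 8.19 and 87.5 CPM in epithelial cells of the Tbx1neo2/neo2-carrier and minoxidil libraries. Tnfaip3 (A20), which restrains NF-κB, was at 47.3, 16.1, 143 and 101 CPM, against 24.6, 8.18, 39.5 and 38.3 CPM in other Rag1-negative cells. Lower were Ccl4 (46.3-fold), Ccl3 (25.3-fold), Prss2 (0 UMIs, at least 14.4-fold with a floor of 3 counts in the library), Xcl1 (6.14-fold) and Serpinb1a, a protease inhibitor gene (108, 67.7, 11.8 and 57.2 CPM, 5.75-fold, a call that ended with at least 2 UMIs of both rule genes).

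With PGE2 the genes higher were Cd163l1 (10.3-fold), Gm26532 (10.1-fold), Cxcl10, Tnfaip3 (6.26-fold) and Dusp1. Cxcl10, an interferon-induced chemokine, was at 50.6, 30.6, 126 and 217 CPM (7.08-fold), and Dusp1, a MAP kinase phosphatase, at 127, 35.4, 224 and 184 CPM (5.20-fold). Dusp1 was also lowest in the Tbx1neo2/neo2-carrier library among other cells, at 93.3, 32.8, 98.0 and 126 CPM in other Rag1-negative cells and at 91.5, 22.2, 105 and 106 CPM in mesenchymal cells. Cxcl10 was at 54.0, 43.1, 171 and 188 CPM in epithelial cells and at 15.2, 22.2, 18.6 and 6.14 CPM in other Rag1-negative cells. Gm26532 was likewise lowest in the Tbx1neo2/neo2-carrier library in the other cell groups. Lower were Ccl4 (49.1-fold), Cdh17 (27.4, 51.6, 42.0 and 4.94 CPM, 10.4-fold), Ptn (34.8, 51.6, 10.1 and 4.94 CPM, 10.4-fold), Xcl1 (4.06-fold) and Cd74 (70.9, 69.3, 213 and 19.8 CPM, 3.51-fold). Cdh17 also lay near the minimum and was no longer called by the mean of CPM over cells, where its log2 ratio was -3.32 compared with -3.38. Ptn is a growth factor gene of the mesenchyme, where it stood at 5679, 7791, 5198 and 5367 CPM. It was at 88.1, 108, 8.99 and 17.4 CPM in other Rag1-negative cells and at 28.3, 139, 13.6 and 4.07 CPM in Rag1-positive cells, lower in both drug libraries there too.

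The lists are read beside the background of 0.953% higher and 2.19% lower, 4.92% and 2.70%, and 2.89% and 0.999% of genes in the 3 comparisons, and each held few genes. Ccl3, Ccl4, Ccl5 and Xcl1 were higher in Tbx1neo2/neo2-carrier than in Tbx1+/+-carrier (4 of 7, 0 lower), and Ccl3, Ccl4, Ccl5 and Xcl1 were lower with PGE2 than in Tbx1neo2/neo2-carrier (4 of 7, 0 higher). With minoxidil Ifng, Il13, Il4 and Lta were higher and Ccl3, Ccl4 and Xcl1 lower, of 10. NK cell receptors gave 3 of 8 higher (Cd226, Klrc1 and Klrk1) in Tbx1neo2/neo2-carrier, 0 of 10 either way with minoxidil and 1 of 12 higher (Klra5) with PGE2. The Tbx1+/+-carrier library held 30 of 85 cells with a single Klrd1 UMI and the Tbx1neo2/neo2-carrier library 1 of 26. With at least 2 UMIs of both rule genes Cd226, Klrc1 and Klrk1 were no longer called, and 1 of 11 (Klre1) was higher. In the same setting the cytokines higher in that comparison were Ccl3 and Ccl4, with Lta lower, and the early T cell genes lower were Cd24a and Myb. Early T cell genes gave 3 of 8 lower in Tbx1neo2/neo2-carrier (Hes1, Myb and Notch1), 2 of 5 higher with minoxidil (Cd24a and Kit) and 2 of 5 higher with PGE2 (Hes1 and Myb). Gzmb was lower in Tbx1neo2/neo2-carrier than in Tbx1+/+-carrier, and Gzma lower with minoxidil than in Tbx1neo2/neo2-carrier. Proliferation genes gave 0 of 20 in either direction in all 3 comparisons.

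Immediate early genes were lower in Tbx1neo2/neo2-carrier than in Tbx1+/+-carrier in 5 of 14 cases (0 higher, median log2 -0.88), higher with minoxidil in 10 of 13 (0 lower, median 1.24) and higher with PGE2 in 9 of 14 (0 lower, median 1.22). Fos, a transcription factor induced within minutes of stimulation or handling, was at 312, 74.1, 353 and 349 CPM. The low value of the Tbx1neo2/neo2-carrier library was shared by the other cells, with Fos at 270, 48.5, 246 and 497 CPM in other Rag1-negative cells and at 1121, 149, 1387 and 1431 CPM in mesenchymal cells. The median log2 ratios of the list were -0.97, 1.09 and 1.36 in other Rag1-negative cells and -1.5, 1.94 and 1.78 in mesenchymal cells, of the same sign as the -0.87, 1.23 and 1.20 of the Klrd1+Nkg7+ cells for the same genes. Cell handling and condition cannot be told apart with 1 library each.

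**Figure D5:**
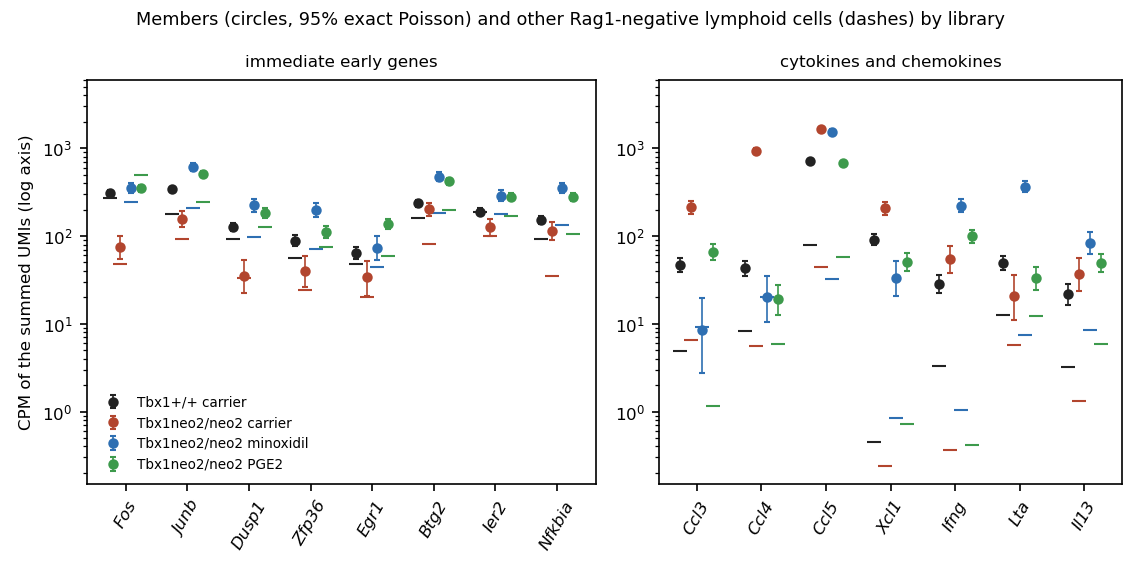
Level in CPM (logarithmic axes) by library of 8 immediate early genes (left panel) and 7 cytokine and chemokine genes (right panel) in Klrd1+Nkg7+ cells, as circles with 95% exact Poisson intervals, and in other Rag1-negative cells, as dashes. Fos falls to 74.1 CPM in the Tbx1neo2/neo2-carrier library together with the dash of the other cells (48.5 CPM). Ccl4 is at 934 CPM there, with 83.5% of its UMIs from 1 cell, a spread that the interval does not cover.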

How the data were processed

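Per the labels and the study's methods, the authors ran Cell Ranger 5.0.1 on mm10 and deposited a matrix of whole UMI counts per gene and barcode for each library (27998 genes). Seurat was then used in the study, whose filters removed cells under 200 genes and those very high in mitochondrial UMIs. Whether introns were counted and the annotation release are not given in the sources used here. Deposited totals were 292687940, 194023208, 151740600 and 156363845 UMIs.

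Cells were selected from these counts with the rule in the report and summed per library. The members and gene lists were chosen with earlier results of these data known. Genes passing filterByExpr were fitted in edgeR 4.0.16 (R 4.3.3; TMM, glmQLFit and glmQLFTest, library as a term, 8 sums, Benjamini-Hochberg adjustment at 0.05), a procedure tested on simulated counts. In that test 42.4% and 45.3% of log2 changes of 1 were recovered in the first and second fit, and 97.9% and 94.8% of changes of 2. Its dispersion was set and not taken from these data. Rule genes were not read from the fits. Single libraries were compared by CPM with exact Poisson intervals (95%), and shares carry Clopper-Pearson intervals. DESeq2 1.42.0, other scaling, no low-count filter, thinning, stricter UMI limits, other mitochondrial limits and leaving out each library were alternatives. Doublets were called with Scrublet in scanpy 1.11.5 (619, 1, 71 and 73 barcodes). Genes named were, for each fit, the 12 higher and 8 lower with the greatest log2 difference among those passing, in the same direction in every library and with at least 50 CPM in the higher group, and 5 in each direction per library comparison, by fold. Genes outside this rule are members of the lists, and some genes that the rule names are not reported here. The number of embryos per library is not known, so p-values measure the spread between these 4 libraries, which also differ in condition. The fits pair both cell groups within each library.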

Additional observations from a re-analysis of the deposited data

Results flagged for a closer look

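In the per-library differences in log2(CPM + 1), 40 sets of 4 libraries were checked for 1 library far from the other 3, which chance alone gives in about 1 of 20 sets. Klrc1 against other Rag1-negative cells differed by 4.33 in the Tbx1+/+-carrier library and by 6.0 to 6.2 in the others. Cxcr6 against other Rag1-negative cells differed by 5.52 with minoxidil and by 3.77 to 4.04 in the others. Cd200r4 against Rag1-positive cells differed by 7.59 with minoxidil and by 5.97 to 6.2 in the others.

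Of 12 marker and lineage genes checked, Bcl11b and Gzma had opposite signs in the carrier and drug libraries. The log2 ratio of Klrd1+Nkg7+ cells over other Rag1-negative cells was 0.32 and 1.13 for Bcl11b in the Tbx1+/+-carrier and Tbx1neo2/neo2-carrier libraries and -1.29 and -1.01 with minoxidil and PGE2. For Gzma it was 0.44 and 1.0 in the carrier libraries and -0.47 and -0.21 in the drug libraries. The counting intervals of the 2 cell groups overlapped for Bcl11b in the Tbx1+/+-carrier and minoxidil libraries, so those signs are not separable from no difference. The difference between carrier and drug libraries was not tested. Klrd1 and Nkg7 together in 0.585% of Epcam-positive, Ptprc-negative cells of the Tbx1+/+-carrier library (0.371 to 0.876) stood beside 0 in the other 3 libraries, whose exact upper limits were 0.335%, 0.385% and 0.301%, so that the minoxidil interval overlapped.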

How the results depend on the processing

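No named gene of the fits or library comparisons changed direction under an alternative, and 589 of 589 values of named genes in the fits stayed past the threshold where they were tested. Genes of the fits had been named for large called differences in the same direction in every library, and those of the library comparisons for extreme ratios. Their stability was largely set by that choice and is not support for the results. Under thinning Cxcr6 (against other Rag1-negative cells) and Xcl1 and Il2rb (against Rag1-positive cells) fell below the low-count filter. The Tbx1+/+-carrier share of 2.79% was 1.77% with at least 2 UMIs of both genes and 2.07% with at most 5% mitochondrial UMIs, and the Tbx1neo2/neo2-carrier share of 2.46% was 3.81% after thinning to 5000 UMIs. The order of the shares changed. The ratio of Tbx1neo2/neo2-carrier to Tbx1+/+-carrier was 0.884, and 1.34 with at least 2 UMIs and 1.32 at 5000 UMIs, and that of minoxidil to Tbx1neo2/neo2-carrier was 0.887, and 1.23 without the Rag1 condition and 1.12 at 10000 UMIs, with overlapping intervals. Other denominators moved all 4 shares, to 0.741%, 0.243%, 0.5% and 0.939% of all kept cells and to 8.04%, 7.78%, 9.25% and 15.4% of cells passing the other conditions. Of the shares of Klrd1+Nkg7+ cells with a lineage gene, 23 of 30 moved past their intervals with the depth or UMI limit.

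Thinning to 5000 UMIs left 349 genes higher and 212 lower than in other Rag1-negative cells, and 563 and 400 against Rag1-positive cells. Without the low-count filter 1535 and 1598 were lower, and with at least 2 UMIs of both genes 1307 were lower than in other Rag1-negative cells. Leaving out each library gave 830 to 1060 higher and 423 to 748 lower against other Rag1-negative cells (804 to 994 and 412 to 627 shared with the full calls), and 946 to 1321 higher and 487 to 952 lower against Rag1-positive cells (915 to 1216 and 478 to 790 shared). The fits pair cell groups by library, and without this replicate block 1039 were higher and 669 lower in the first contrast and 1405 and 990 in the second. DESeq2 gave 1032 and 695, and 1265 and 837.

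Between libraries, a 1.5-fold limit gave 71 higher and 170 lower for Tbx1neo2/neo2-carrier against Tbx1+/+-carrier, 218 and 174 for minoxidil and 153 and 61 for PGE2 against Tbx1neo2/neo2-carrier, and a 3-fold limit gave 11 and 15, 51 and 21, and 31 and 11. A minimum of 20 CPM gave 52 and 167 in the first and 127 and 61 in the PGE2 comparison. In the first comparison TMM scaling gave 41 and 38, and at least 2 UMIs of both genes left 16 higher. Of 300 values of named genes, 5 no longer passed: Adgrg1 (-2.39), Mzb1 (-2.19) and Serpinb1a (-1.84) with at least 2 UMIs, H2-Q7 (2.80, from 2.87) without globin-rich cells and Cdh17 (-3.32, from -3.38) by the mean over cells. The cause was not tested, except that thinning and fewer libraries leave fewer UMIs. The fit of CD3-positive against CD3-negative cells and its alternatives were not run, since 1 library had 10 cells of both kinds.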
